A study of Homo sapiens with 8 samples.

Results

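The 10 genes described here are regulators and targets of ATF4, the transcription factor at the centre of the integrated stress response. They are ATF4, ATF5, DDIT3, DDIT4, TRIB3, CHAC1, SESN2, CEBPB, CEBPG and ASNS. They were chosen by name, with earlier results of these data known, and all 10 were found among the 25066 genes of the deposited table. The RNA came from TMD8, an established human line derived from a large B cell lymphoma of the ABC (activated B cell-like) type, a tumour that lives on chronic B cell receptor signalling. All 4 groups stably carried Cas9, brought in by lentivirus. They also carried either a control guide RNA (sgCTRL, genotype labelled KLHL14(+/+)) or a guide against KLHL14 (sgKLHL14, labelled KLHL14(-/-)), a BTB-Kelch adaptor of a ubiquitin ligase. Each kind of cell was given DMSO, the solvent, or ibrutinib, a drug that binds covalently to Bruton tyrosine kinase (BTK) and blocks it, at 2 nM for 24 h. Each group held 2 libraries. Whether these were separate cultures, and whether the edited cells were 1 clone or a pool, is not given in the sources used here, so the p-values speak only of the spread between these libraries, which may be technical.

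The integrated stress response starts when a kinase that senses missing amino acids, unfolded protein in the endoplasmic reticulum (ER), viral RNA or lack of haem phosphorylates the translation factor eIF2. General translation then slows, while the ATF4 mRNA is translated more. ATF4 pairs with C/EBP proteins at composite sites in DNA and induces genes of amino acid synthesis, import and tRNA charging, and, when stress lasts, genes that brake growth or favour death. ATF4 is governed to a large part at translation, which mRNA levels do not show.

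Promoter sequence is shown for the members with a match to the composite C/EBP-ATF response element, because the 10 members moved together and the element is where ATF4 is known to act. The letters searched were TGATGNAAN on both strands, in windows from 250 bases before to 50 bases after each RefSeq start (GRCh38.p14). The 10 members had 19 such windows, and 3 of them, of 3 genes, held a match, against 3.61% of all 35116 windows. The stricter form TGATGCAAT was in 0 of the 19 and in 0.236% of all windows. A match is a description of the letters in this window and not evidence of binding. Capitals mark the match, and each stretch is written 5′ to 3′ on the strand of the gene.
ASNS, chr7:97872423-97872521, minus strand, match starting 68 bases before the start: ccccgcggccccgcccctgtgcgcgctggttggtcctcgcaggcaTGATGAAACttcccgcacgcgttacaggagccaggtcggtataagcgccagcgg
CHAC1, chr15:40953221-40953314, plus strand, match on the opposite strand, 210 bases before the start: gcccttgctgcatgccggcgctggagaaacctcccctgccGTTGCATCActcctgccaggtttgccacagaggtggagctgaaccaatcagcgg
CEBPG, chr19:33374061-33374089, plus strand, match 42 bases before 1 of its RefSeq starts: gcgcggcgtcTGATGCAACctgccggcaa
The other 7 members had no such letters in their windows.

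Depth ran from 13497206 to 23467110 reads per library in DMSO and from 12333876 to 16843591 in ibrutinib. Levels are log2 of reads scaled per library and not per gene length, so levels are compared between libraries and not between genes. All 10 members passed the level filter (a mean at or above the value of 10 reads), as did 12682 genes in all. The mRNA of KLHL14 was not reduced in libraries labelled sgKLHL14, with levels of 12.07 and 12.06 in DMSO and 12.30 and 12.30 in ibrutinib with sgCTRL, and 12.19 and 12.33 in DMSO and 13.16 and 13.16 in ibrutinib with sgKLHL14. A count per gene does not show small insertions or deletions, so this does not check the genotype, and directions by guide are given for the libraries labelled sgKLHL14. The 6 B cell markers reported here (MS4A1, CD79A, CD79B, PAX5, CD22, IRF4) all passed the filter, with a summed linear level of 141006.2 to 146188.4 in DMSO and 149267.8 to 160945.8 in ibrutinib. With either guide 5 of these 6 rose with ibrutinib and 1, IRF4, fell (-0.88 and -0.57). Of 9 T cell markers 2 passed and CD3D, CD3E, CD7, TRAT1 and IL7R were at 0 in all libraries, and the summed level was 45.3 to 57.4 in DMSO and 91.6 to 105.1 in ibrutinib. Of 9 myeloid markers 2 passed, and S100A8, S100A9 and MPO were at 0 throughout. Their sum was 72.1 to 98.1 in sgCTRL DMSO, 76.1 to 86.7 in sgKLHL14 DMSO, 70.4 to 109.4 in sgCTRL ibrutinib and 52.0 to 59.1 in sgKLHL14 ibrutinib. Of 9 epithelial and fibroblast markers 6 passed and KRT19 was at 0 throughout, with a sum of 1499.5 to 1824.6 in DMSO and 1710.2 to 1865.0 in ibrutinib. The B cell and T cell sums were higher in all ibrutinib libraries than in all DMSO libraries, the myeloid sum was lowest in sgKLHL14 ibrutinib and the epithelial and fibroblast sum lowest in sgKLHL14 DMSO (1499.5 to 1560.8). With ibrutinib 1 T cell marker rose with sgCTRL and 2 with sgKLHL14. Of the myeloid markers 1 rose and 1 fell with sgCTRL, and 0 rose and 1 fell with sgKLHL14. Of the epithelial and fibroblast markers 2 rose and 1 fell with sgCTRL, and 3 rose and 1 fell with sgKLHL14. The part of these markers in the results below was not tested.

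The first question is how these genes differed between ibrutinib and DMSO. All 10 fell with ibrutinib in sgCTRL cells and all 10 fell in sgKLHL14 cells (limma, Benjamini-Hochberg adjusted p under 0.05 over all genes). CHAC1 and SESN2 fell most, to 23.4% and 27.2% of their DMSO level with sgCTRL, and DDIT4 least, to 76.7%. Over all 12682 genes, 16.9% were called lower with sgCTRL and 19.3% with sgKLHL14, and 13.6% were called lower with both guides. The median log2 change of the members was -1.02 with sgCTRL and -0.93 with sgKLHL14, against 0.018 and 0.011 over all genes. Within sgCTRL and within sgKLHL14, both ibrutinib libraries lay below both DMSO libraries in all 10 members. That pattern was found in 33.0% of all genes with sgCTRL and in 32.9% with sgKLHL14. With the guides pooled, the 4 ibrutinib libraries also lay below the 4 DMSO libraries in all 10 members. The share of all genes with that stricter pattern was not computed. That these genes fell with sgCTRL was already known when they were chosen, so the count is not independent evidence of its direction. The related lists below and the tests were also chosen with earlier results of these data known. The count with sgKLHL14, the shares set beside these counts and the list counts below are therefore descriptions and not independent evidence either. In RNA of whole cultures, less RNA per cell and fewer cells with high levels cannot be told apart.

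**Figure D1:**
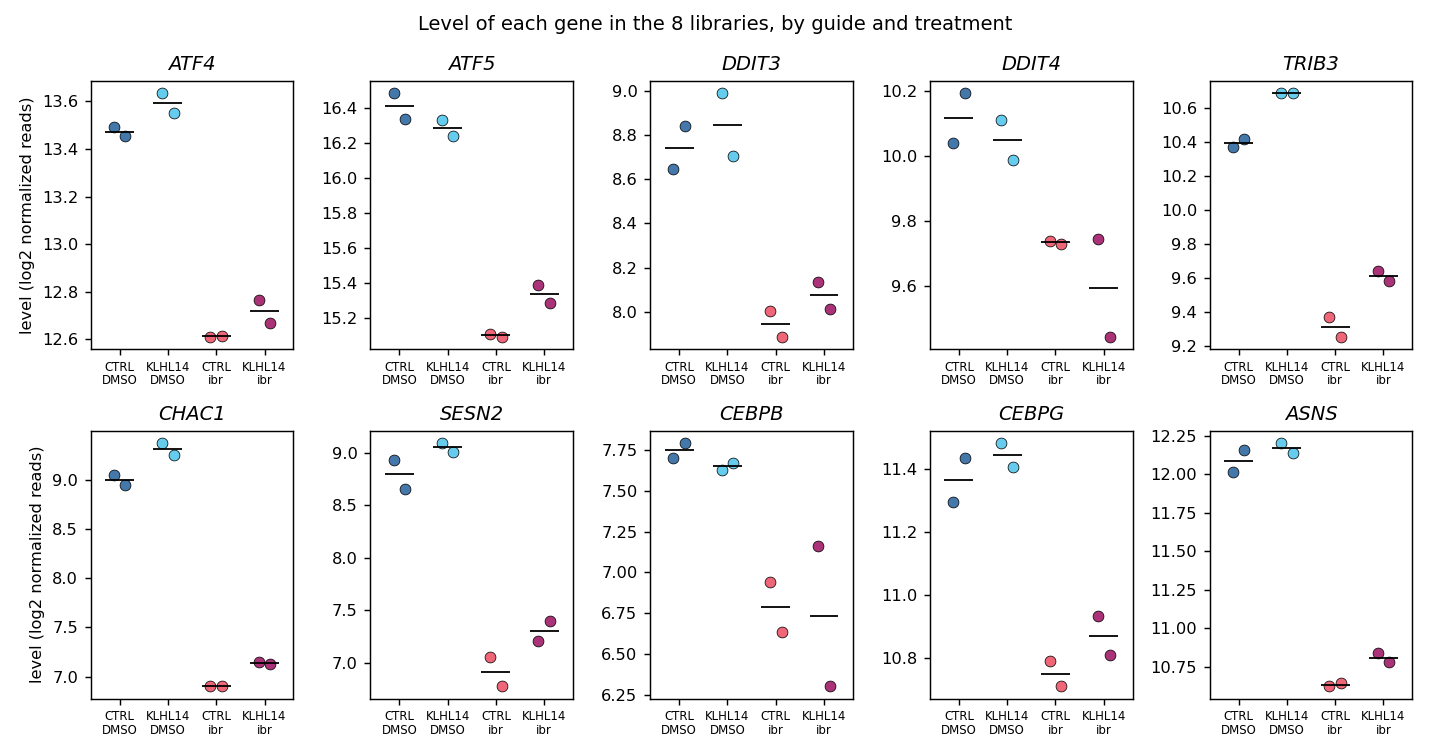
Level of each of the 10 genes (y axis, log2 normalized reads, a separate range per gene) in the 8 libraries, grouped by guide and treatment (x axis); points are libraries and black lines are means of 2. In every panel the 4 ibrutinib libraries lie below the 4 DMSO libraries.

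ATF4, the activator itself, had log2 levels of 13.49 and 13.45 in DMSO and 12.61 and 12.62 in ibrutinib with sgCTRL, and 13.63 and 13.55 in DMSO and 12.77 and 12.67 in ibrutinib with sgKLHL14. Treatments were far apart and the guides close together. The log2 change with ibrutinib was -0.86 with sgCTRL (SE 0.059, limma adjusted p = 1.21e-09) and -0.88 with sgKLHL14 (limma adjusted p = 9.34e-10), so that 55.2% and 54.5% of the DMSO level was left. These values rested on 2976 to 10857 reads.

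ATF5 is a related bZIP factor that is also translated under eIF2 phosphorylation and is a transcriptional target of the pathway. Its levels were 16.48 and 16.33 in DMSO and 15.11 and 15.09 in ibrutinib with sgCTRL, and 16.33 and 16.24 in DMSO and 15.39 and 15.29 in ibrutinib with sgKLHL14. The log2 change of ATF5 was -1.31 with sgCTRL (SE 0.069, limma adjusted p = 3.70e-11) and -0.95 with sgKLHL14 (limma adjusted p = 2.75e-09). It was the only member whose guide order turned with treatment. In DMSO the sgKLHL14 libraries were the lower ones, by a margin of 0.003 between the nearest libraries, and in ibrutinib they were the higher ones.

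DDIT3 encodes CHOP, a C/EBP-family factor that is induced by ATF4 and is linked to cell death under lasting stress. Its levels were 8.65 and 8.84 in DMSO and 8.01 and 7.89 in ibrutinib with sgCTRL, and 8.99 and 8.71 in DMSO and 8.14 and 8.01 in ibrutinib with sgKLHL14. The log2 change was -0.80 with sgCTRL (SE 0.12, limma adjusted p = 5.50e-05) and -0.77 with sgKLHL14 (limma adjusted p = 6.17e-05). The guides overlapped in DMSO, and with 117 to 434 reads per library the counting error was 0.069 to 0.13.

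CEBPG and CEBPB encode C/EBP proteins that can pair with ATF4, CEBPG being a short form without an activation domain. CEBPG was at 11.30 and 11.44 in DMSO and 10.79 and 10.71 in ibrutinib with sgCTRL, and 11.48 and 11.41 in DMSO and 10.93 and 10.81 in ibrutinib with sgKLHL14. Its log2 change was among the smaller ones, -0.62 with sgCTRL (SE 0.071, limma adjusted p = 1.43e-06) and -0.57 with sgKLHL14 (limma adjusted p = 3.04e-06). CEBPB had the lowest counts of the members and the widest spread under ibrutinib.

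The levels of CEBPB were 7.70 and 7.80 in DMSO and 6.94 and 6.63 in ibrutinib with sgCTRL, and 7.63 and 7.67 in DMSO and 7.16 and 6.30 in ibrutinib with sgKLHL14. The last pair rested on 88 and 36 reads, with a counting error of 0.15 and 0.24 on the log2 scale. The log2 change of CEBPB was -0.96 with sgCTRL (SE 0.21, limma adjusted p = 0.00150) and -0.92 with sgKLHL14 (limma adjusted p = 0.00185). Without sgKLHL14 ibrutinib replicate 2, the library with 36 reads, the CEBPB change with sgKLHL14 was -0.49 and did not pass (adjusted p = 0.0606), and without replicate 1 it was -1.35. The direction was the same in both cases.

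TRIB3, SESN2 and DDIT4 encode brakes. TRIB3 is a pseudokinase that binds ATF4 and CHOP and dampens AKT, while SESN2, a leucine sensor, and DDIT4 (REDD1) both restrain the growth kinase mTORC1. TRIB3 was at 10.37 and 10.42 in DMSO and 9.37 and 9.26 in ibrutinib with sgCTRL, and 10.69 and 10.69 in DMSO and 9.64 and 9.59 in ibrutinib with sgKLHL14. Within each treatment both sgKLHL14 libraries were above both sgCTRL libraries. The log2 change of TRIB3 with ibrutinib was -1.08 with sgCTRL (SE 0.077, limma adjusted p = 2.19e-09) and -1.07 with sgKLHL14 (limma adjusted p = 2.31e-09), which left 47.3% and 47.5% of the DMSO level.

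SESN2 was at 8.93 and 8.66 in DMSO and 7.05 and 6.77 in ibrutinib with sgCTRL, and 9.09 and 9.01 in DMSO and 7.21 and 7.40 in ibrutinib with sgKLHL14. Its log2 change was -1.88 with sgCTRL (SE 0.14, limma adjusted p = 3.61e-09) and -1.75 with sgKLHL14 (limma adjusted p = 9.73e-09). In sgCTRL cells 49 of all genes tested had a lower log2 change than SESN2, and 34 had a lower one than CHAC1.

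DDIT4 moved least. Its levels were 10.04 and 10.19 in DMSO and 9.74 and 9.73 in ibrutinib with sgCTRL, and 10.11 and 9.99 in DMSO and 9.75 and 9.44 in ibrutinib with sgKLHL14. The log2 change of DDIT4 was -0.38 with sgCTRL (SE 0.096, limma adjusted p = 0.00401) and -0.46 with sgKLHL14 (limma adjusted p = 0.000838). With sgCTRL the DDIT4 call was lost without sgCTRL DMSO replicate 2 (-0.31, adjusted p = 0.0604) and without the variance trend (adjusted p = 0.0553).

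CHAC1 and ASNS are enzymes. CHAC1 breaks down glutathione, and ASNS makes asparagine from aspartate. CHAC1 was at 9.05 and 8.94 in DMSO and 6.90 and 6.90 in ibrutinib with sgCTRL, and 9.37 and 9.25 in DMSO and 7.14 and 7.13 in ibrutinib with sgKLHL14. The gap between treatments was many times the spread within a group. The CHAC1 change was -2.09 with sgCTRL (SE 0.12, limma adjusted p = 1.15e-10) and -2.17 with sgKLHL14 (limma adjusted p = 6.70e-11), a 4.27-fold and 4.51-fold lower level. ASNS was at 12.01 and 12.16 in DMSO and 10.62 and 10.64 in ibrutinib with sgCTRL, and 12.20 and 12.14 in DMSO and 10.84 and 10.78 in ibrutinib with sgKLHL14. The ASNS change was -1.45 with sgCTRL (SE 0.066, limma adjusted p = 4.73e-12) and -1.36 with sgKLHL14 (limma adjusted p = 1.39e-11), the smallest adjusted p of the members with either guide. Of the 3 members with the promoter letters shown above, CHAC1 and ASNS were among those that fell most and CEBPG among those that fell least.

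**Figure D2:**
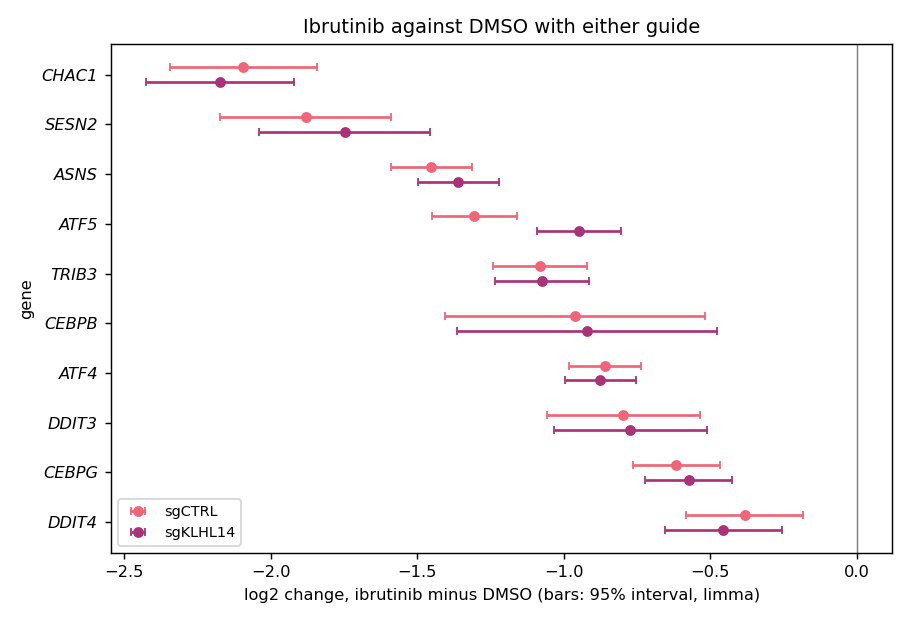
Log2 change of each gene with ibrutinib (x axis, ibrutinib minus DMSO) for the 2 guides, with 95% intervals from the fit of all 8 libraries; genes are ordered by the change with sgCTRL. Every interval lies below 0, from CHAC1 (-2.09 and -2.17) to DDIT4 (-0.38 and -0.46), and the pairs lie close together except for ATF5 (-1.31 and -0.95).

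Whether the guide altered the response was asked by the difference between the ibrutinib responses. It passed for 0 of the 10 members (limma), against 0.0237% of all genes (3 of 12682), and 1 member, ATF5, had an unadjusted p under 0.05. The ATF5 response was smaller with sgKLHL14 by 0.36 (log2, 95% interval 0.15 to 0.56, limma adjusted p = 0.485). At the unadjusted threshold 721 of all genes passed. For the other members the difference ran from -0.080 for CHAC1 to 0.13 for SESN2. The intervals were narrowest for ATF4 (-0.19 to 0.16) and widest for CEBPB (-0.59 to 0.67), and they leave room for differences in every member. The adjusted threshold over all genes was stricter still, as the ATF5 difference did not pass it though its interval lay above 0. That 0 of the 10 members passed therefore does not show equal responses. Over the 10 members the log2 changes with the 2 guides, which share no library, had a Pearson correlation of 0.97, given as a description.

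The guides were then compared within each treatment. In DMSO 0 of the 10 members passed, against 1.62% of all genes (limma). TRIB3 and CHAC1 had the smallest p of the members in DMSO, and neither passed. Their log2 differences were 0.29 (95% interval 0.13 to 0.45, limma adjusted p = 0.0638) and 0.32 (0.064 to 0.57, limma adjusted p = 0.231). TRIB3 passed in DMSO with voom (adjusted p = 0.0316) and with the replicate number as a block (adjusted p = 0.0353). In ibrutinib TRIB3 was higher with sgKLHL14 by 0.30 (SE 0.077, 95% interval 0.14 to 0.46, limma adjusted p = 0.0452), 1 of 10 members against 2.35% of all genes. That call was lost without either sgCTRL DMSO library (adjusted p = 0.0588 and 0.0597), without sgCTRL ibrutinib replicate 1 (0.110) or 2 (0.523), and without sgKLHL14 ibrutinib replicate 1 (0.228) or 2 (0.110). It was also lost with voom (0.107), with only the groups compared (0.0759), when no level filter (0.0943) or no variance trend (0.149) was used. The size of the TRIB3 difference stayed between 0.24 and 0.36 when any library was left out.

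By guide, 7 of the 10 members had a log2 difference above 0 in both treatments, namely ATF4, DDIT3, TRIB3, CHAC1, SESN2, CEBPG and ASNS, as did 30.8% of all genes. With the fall in ibrutinib, this choice of genes fixes the order of their mean levels and is no further result. From high to low the order is sgKLHL14 DMSO, sgCTRL DMSO, sgKLHL14 ibrutinib, sgCTRL ibrutinib. Neighbours in that order by guide did not pass the test except TRIB3 in ibrutinib. In ibrutinib 8 members had both sgKLHL14 libraries above both sgCTRL libraries, a pattern of 21.6% of all genes, and in DMSO 4 had, a pattern of 21.5%. The median difference by guide was 0.094 in DMSO and 0.15 in ibrutinib, against 0.0025 and -0.004 over all genes. In ibrutinib SESN2 differed by 0.39 (95% interval 0.10 to 0.68, limma adjusted p = 0.184), ATF5 by 0.24 (0.091 to 0.38, limma adjusted p = 0.0853) and ASNS by 0.18 (0.039 to 0.32, limma adjusted p = 0.210), none of which passed. ATF5 passed in ibrutinib with the replicate number as a block (adjusted p = 0.0356). It also passed there without sgKLHL14 DMSO replicate 1 (0.0487) or 2 (0.0489), with voom (0.0450), with quantile scaling (0.0356), with a robust prior (0.0454) and with only the groups compared (0.0147). DDIT4 was at -0.068 in DMSO and -0.14 in ibrutinib, and CEBPB at -0.098 and -0.056.

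**Figure D3:**
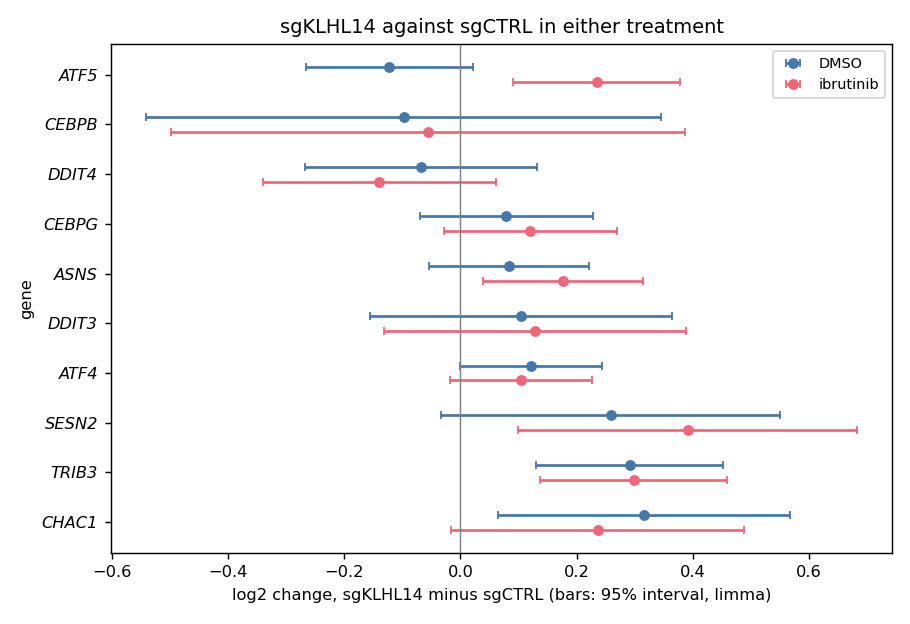
Log2 difference between guides (x axis, sgKLHL14 minus sgCTRL) for each gene in DMSO and in ibrutinib, with 95% intervals from the same fit; genes are ordered by the difference in DMSO. All differences lie between -0.14 and 0.39, TRIB3 (0.29 and 0.30) has both intervals above 0, and ATF5 (-0.12 and 0.24) changes side.

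Upstream of ATF4, mRNAs of the eIF2 machinery moved less. Of 17 genes tested (of 18 listed), 5 fell and 1 rose with sgCTRL, and 4 fell and 3 rose with sgKLHL14, with medians of -0.085 and -0.054. Over all genes 17.9% rose with sgCTRL and 19.7% with sgKLHL14. Of the 4 eIF2 kinases 0 passed with either guide in the fit of all 8 libraries. With sgCTRL the values were -0.077 for EIF2AK1 (the haem-regulated kinase), 0.088 for EIF2AK2 (PKR), 0.18 for EIF2AK3 (PERK, the ER sensor, limma adjusted p = 0.0903) and -0.10 for EIF2AK4 (GCN2, the amino acid sensor). With sgKLHL14 they were -0.073 for EIF2AK1, 0.016 for EIF2AK2, 0.19 for EIF2AK3 (limma adjusted p = 0.0615) and -0.18 for EIF2AK4 (limma adjusted p = 0.0514). With sgKLHL14 EIF2AK4 passed as lower with a level filter of 100 reads (0.0475), voom (0.0414), the replicate number as a block (0.0321) and without sgKLHL14 DMSO replicate 1 (-0.25, adjusted p = 0.0250). EIF2AK3 passed as higher with sgKLHL14 without sgKLHL14 DMSO replicate 2 (0.25, adjusted p = 0.0410). PPP1R15A encodes GADD34, the stress-induced subunit that directs a phosphatase back to eIF2 and an ATF4 target itself, and its log2 change was -0.95 with sgCTRL (SE 0.067, limma adjusted p = 2.05e-09) and -0.77 with sgKLHL14 (limma adjusted p = 3.54e-08). The eIF2 subunit genes EIF2S2 (-0.65 and -0.53) and EIF2S1 (-0.31 and -0.29) and the eIF2B subunit gene EIF2B3 (-0.31 and -0.44) fell with both guides. GCN1L1, which encodes the partner of GCN2 at ribosomes, rose (0.28 and 0.34). EIF2S3 fell with sgCTRL (-0.15, adjusted p = 0.0393). The EIF2S3 call was lost without sgCTRL DMSO replicate 1 (0.0948) or 2 (0.110) and without sgCTRL ibrutinib replicate 1 (0.226) or 2 (0.165).

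Close relatives of the members did not all move the same way. Of 9 paralogs 5 passed the level filter. With sgCTRL 1 of these 5 rose and 1 fell, against 17.9% and 16.9% of all genes. With sgKLHL14 2 rose and 2 fell, against 19.7% and 19.3%. SESN1, another sestrin gene, rose with both guides, while SESN2 fell. The rise of SESN1 was 0.66 in sgCTRL cells (SE 0.14, limma adjusted p = 0.00132) and 0.62 in sgKLHL14 cells (limma adjusted p = 0.00182). CEBPA fell by 0.74 and 0.73 (limma adjusted p = 0.0109 and 0.0104). The CEBPA call with sgCTRL was lost when sgCTRL DMSO replicate 2 (-0.40, adjusted p = 0.219) or sgCTRL ibrutinib replicate 2 (-0.56, adjusted p = 0.118) was left out, and with either guide when no level filter (adjusted p = 0.0745 and 0.0719) or no variance trend (0.0585 and 0.0550) was used. TRIB2 was at 0.30 with either guide and did not pass (adjusted p = 0.0719 and 0.0643). TRIB1 was at 0.14 with sgCTRL, which did not pass, and rose by 0.38 with sgKLHL14 (adjusted p = 0.000824). CHAC2, at -0.18 with sgCTRL, did not pass there and fell by 0.40 with sgKLHL14 (adjusted p = 0.00827). That CHAC2 value was -0.27 without sgKLHL14 DMSO replicate 1 and did not pass (adjusted p = 0.125). DDIT4L, SESN3, CEBPD and CEBPE did not pass the level filter.

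Of 12 bZIP genes whose products can pair or compete with ATF4 or its partners, 10 were tested, and 7 fell with sgCTRL and 8 with sgKLHL14 (0 rose, medians -0.66 and -0.65). BATF3 (-1.66 and -1.75), ATF3 (-1.28 and -0.97), BATF (-1.12 and -1.04) and JUN (-1.09 and -0.61) had the smallest p with sgCTRL. ATF3 is itself induced by ATF4, and BATF, BATF3 and JUN form AP-1 dimers in lymphocytes.

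Targets of ATF4 and CHOP outside amino acid supply fell in 10 of 13 cases tested with either guide (18 listed, medians -0.86 and -0.70). Among them were VLDLR (-1.42 and -1.11), a lipoprotein receptor, GPT2 (-1.29 and -1.19), a mitochondrial alanine transaminase, ATF3 and PPP1R15A. KLHL24, a BTB-Kelch gene, rose (0.55 and 0.73), as did BBC3, which encodes the death protein PUMA (0.34 and 0.60). The BBC3 call with sgCTRL (adjusted p = 0.0445) was lost without sgCTRL DMSO replicate 1 (0.102) or 2 (0.163), without sgCTRL ibrutinib replicate 1 (0.21, adjusted p = 0.361), and without sgKLHL14 ibrutinib replicate 1 (0.0514) or 2 (0.0510). BBC3 also missed the threshold with quantile scaling (0.28, adjusted p = 0.102), median scaling (0.0510), voom (0.0520), no level filter (0.125) or no variance trend (0.117). The 5 genes NUPR1, FGF21, GDF15, STC2 and ADM2 did not pass the level filter.

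The ATF4 targets listed for amino acid supply split by step. They were listed as targets and are not whole gene families. All 9 synthesis genes tested (10 listed) fell with both guides (medians -0.88 and -0.97), among them CTH (-2.42 and -2.28) for cysteine, ALDH1L2 (-2.13 and -1.72) for mitochondrial folate, and PHGDH (-1.11 and -1.04) and PSAT1 (-1.10 and -0.97) for serine. All 12 tRNA synthetase genes listed as ATF4 targets fell with both guides (medians -0.67 and -0.68). Among them were WARS (-1.50 and -1.15), CARS (-1.39 and -1.19) and YARS (-0.90 and -0.86). GARS was left at 50.1% and 54.9% of its DMSO level. Of 8 carrier genes tested (9 listed), 3 fell and 2 rose with sgCTRL (median -0.093), and 4 fell and 1 rose with sgKLHL14 (median -0.18). Leaving out sgCTRL ibrutinib replicate 1 or 2 gave 2 that fell and 1 that rose with sgCTRL. SLC6A9 (-1.84 and -1.84), a glycine carrier, and SLC1A5 (-0.90 and -0.91), a glutamine carrier, fell, and SLC1A4 (0.48 and 0.42), a neutral amino acid carrier, rose. With sgKLHL14 SLC38A2 fell as well, with values of -0.37 to -0.31 when any 1 library was left out. SLC7A1 did not pass with sgKLHL14 in the fit of all 8 libraries (0.0915 to 0.19 when any 1 library was left out). With sgCTRL SLC38A2 (-0.24) fell and SLC7A1 (0.21) rose. The SLC38A2 call was lost when sgCTRL DMSO replicate 2 (-0.13, adjusted p = 0.174) or either sgCTRL ibrutinib library (0.0654 and 0.0587) was left out. The SLC7A1 call was lost when sgCTRL DMSO replicate 1 (0.0726) or either sgCTRL ibrutinib library (0.0872 and 0.117) was left out.

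In the ATF6 and XBP1 branches of the ER stress response more genes rose than fell. Of 21 genes tested (22 listed), 11 rose and 4 fell with sgCTRL (median 0.21), and 13 rose and 3 fell with sgKLHL14 (median 0.31). The count with sgCTRL was smaller without sgCTRL DMSO replicate 1 (6 rose and 4 fell), sgCTRL ibrutinib replicate 1 (6 and 3) or sgCTRL ibrutinib replicate 2 (6 and 4). DERL3 (1.37 and 1.17) and SYVN1 (0.61 and 0.68), both of ER-associated degradation, and the folding enzyme gene PDIA4 (0.64 and 0.62) rose. EDEM1 (-0.97 and -0.79), HERPUD1 (-0.55 and -0.36) and SEL1L (-0.44 and -0.25), also of ER-associated degradation, fell with both guides, and PDIA6 (-0.25) fell with sgCTRL. Without sgCTRL ibrutinib replicate 1 the PDIA6 call was lost (adjusted p = 0.0511), and without sgKLHL14 DMSO replicate 2 the SEL1L value with sgKLHL14 was -0.14 (adjusted p = 0.111). When no variance trend was used, the ibrutinib calls of SEL1L (0.0690) and CHAC2 (0.0748) with sgKLHL14 were also lost. So were those of SLC38A2 (0.0862), SLC7A1 (0.0618) and EIF2S3 (0.0964) with sgCTRL. Without the level filter those of SLC7A1 (0.0650), EIF2S3 (0.0665) and CHAC2 (0.0578) were lost as well.

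**Figure D4:**
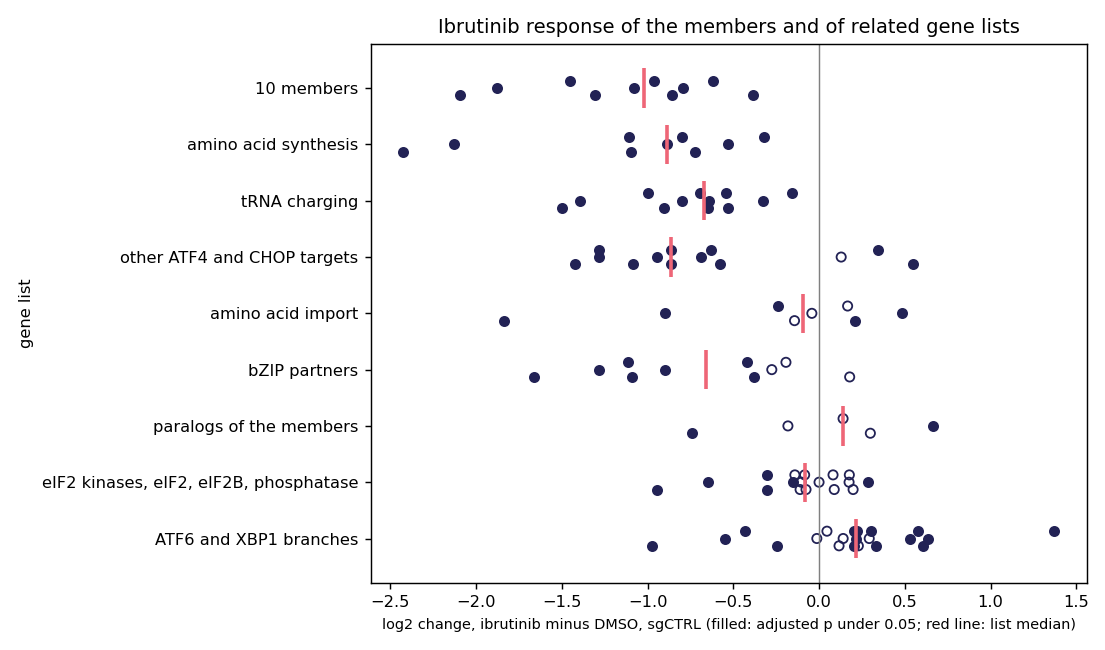
Log2 change with ibrutinib in sgCTRL cells (x axis) for each gene tested of the 10 members and of 8 related lists (y axis); filled points passed the test, open points did not, and red lines are list medians. The members have a median of -1.02, the amino acid synthesis genes -0.88, the tRNA charging genes -0.67, and the ATF6 and XBP1 branches 0.21.

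By guide, 8 of the 93 genes tested in these lists passed in ibrutinib (8.60%, against 2.35% of all genes) and 5 in DMSO (5.38%, against 1.62%). In ibrutinib PPP1R15A (0.51), JUN (0.65) and XBP1 (0.76), the factor of another ER stress branch, were higher with sgKLHL14 and passed without each library in turn. JUN and XBP1 in ibrutinib also passed under the other alternatives. The other calls by guide were lost when no variance trend was used, PPP1R15A in ibrutinib with an adjusted p of 0.0604. Some of these calls were lost under further changes of processing as well, among them calls of SLC7A11 and AARS. In ibrutinib PMAIP1 (0.46), the gene of the death protein NOXA, AARS (0.35), PSAT1 (0.29) and WARS (0.28) were also higher with sgKLHL14. The calls of PMAIP1 (adjusted p = 0.0839) and AARS (0.0687) were lost without sgCTRL ibrutinib replicate 1. PSAT1 lost its call without sgCTRL ibrutinib replicate 1 (0.216) or 2 (0.136) and without sgKLHL14 ibrutinib replicate 1 (0.217). WARS lost it without any 1 of the 4 ibrutinib libraries (0.0549 to 0.230), as did SLC7A11 (0.0666 to 0.258), the cystine carrier gene, which was lower with sgKLHL14 (-0.37). In DMSO PPP1R15A (0.33), XBP1 (0.38) and AARS (0.25) were higher and SLC7A11 (-0.34) and KLHL24 (-0.39) lower. The PPP1R15A call in DMSO was lost without sgCTRL DMSO replicate 2 (0.125) and without sgKLHL14 DMSO replicate 1 (0.169), and the XBP1 call without sgCTRL DMSO replicate 1 (0.146) and without sgKLHL14 DMSO replicate 1 (0.0888). AARS lost it without either sgCTRL DMSO library, sgKLHL14 DMSO replicate 1 or either sgCTRL ibrutinib library (0.0762 to 0.193). SLC7A11 (0.0634 to 0.642) and KLHL24 (0.0555 to 0.558) lost it without any 1 of 7 libraries, all but sgKLHL14 DMSO replicate 2. Without sgKLHL14 DMSO replicate 1, SLC7A11 was at -0.17 and KLHL24 at -0.24.

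The genes whose pattern was most like that of the members were found by the root mean square distance, over the 8 libraries, between a gene's deviations from its own mean and the median deviation of the members. Among 12672 other genes the nearest were IFRD1 (0.042), ID2 (0.049), DRAM (0.051), NFKBIA (0.057) and GARS (0.058) on the log2 scale. These encode a transcriptional co-regulator, an inhibitor of helix-loop-helix factors, a p53-induced autophagy protein (now DRAM1), the NF-kB inhibitor IkB-alpha and the glycyl-tRNA synthetase. The changes of the first 4 with ibrutinib were -0.99, -1.13, -1.01 and -1.01 with sgCTRL, in that order. The members themselves lay at 0.082 for ATF4 to 0.58 for CHAC1 from their own median pattern.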

How the data were processed

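Stranded poly(A) libraries of 8 samples were sequenced from both ends, per the labels' protocols. The tools bcl2fastq, STAR and HTSeq and the build hg19 are named, per the submitters' processing notes. Their versions, the annotation and the use of strand in counting were not given in the sources used here, so overlapping and antisense genes cannot be told apart. The deposited table held log2 values per gene and a row of total reads, which stayed out of all tests. In each library a value was the log2 of whole reads multiplied by 1 factor, with 0 reads listed at 0 (100% of values above 0 were whole within 0.0006, and recovered reads summed to within rounding of the totals). The table had 0 columns of other samples.

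The 12682 genes with a mean of at least 4.03, the value of 10 reads in a library of median scale, were kept (1 of them had a library without reads, listed at 0). A limma model (version 3.58.1, R 4.3.3) with 4 group means and a variance trend was fitted to them (4 residual and 15.1 prior degrees of freedom). P-values are 2-sided and Benjamini-Hochberg adjusted over all kept genes, called under 0.05, and intervals are 95%. Counting error is that of reads alone. The fit was tried on 5 simulated sets, with 1 spread for all genes and 200 genes changed for ibrutinib with sgCTRL. Of 1.5-fold changes 80.9% were called and of 2-fold changes 88.9%, and 5.62% of calls were false. In the data 4411 genes were called for ibrutinib with sgCTRL, and spread can differ between genes, so these rates need not hold there. The other comparisons were not simulated. There were 18 alternatives, 8 of which left out 1 library each. TMM factors for voom were computed from the recovered reads.

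The members, lists and tests were chosen with earlier results of these data known. Named were all members, KLHL14, up to 4 genes per list with the smallest p for ibrutinib with sgCTRL, genes of a list called by guide, and the 5 genes most like the members. EIF2AK1 to EIF2AK4, EIF2B3, EIF2S3, CHAC2, BBC3, KLHL24 (ibrutinib), SLC7A1, HERPUD1, SEL1L, PDIA6, IRF4 and the genes under the level filter were named after their values were seen. Symbols are those of the table. All 10 members matched the RefSeq promoter table (GRCh38.p14). 1 of the listed cell markers is not reported here.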

Additional observations from a re-analysis of the deposited data

Results flagged for a closer look

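The ibrutinib response of KLHL14, the gene that the guide targets, differed between the guides by a test of the difference itself. KLHL14 rose by 0.24 (log2) with sgCTRL and by 0.90 with sgKLHL14, and the difference was 0.66 (SE 0.085, limma adjusted p = 0.00162, n = 2 per group). The KLHL14 difference did not pass without the level filter (adjusted p = 0.210) or without the variance trend (0.521). No member of the ATF4 genes met this test, and groups of 2 libraries are too small for a test of outlying libraries.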

How the results depend on the processing

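Of 358 member values for ibrutinib against DMSO under the alternatives, 355 kept direction and call and 3 lost the call (DDIT4 with sgCTRL, in 2 alternatives, and CEBPB with sgKLHL14, in 1). With a level filter of 100 reads CEBPB was not tested. Leaving out 1 library each gave 9 to 10 members called with either guide, 0 by guide in DMSO, 0 to 2 by guide in ibrutinib and 0 in the difference between responses. In DMSO 1 member was called by guide with voom and with the replicate block. In ibrutinib it was 0 members with no level filter or no variance trend, and 2 with a robust prior, quantile scaling or the replicate block. Replicate differences correlated between groups at -0.061 to 0.11 across genes, so the numbers were not taken to pair libraries.

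Over all genes, the count by guide in DMSO (206) was 47 without the level filter, 25 without the trend and 369 with the replicate block. In ibrutinib (298) it was 155 without the filter and 96 without the trend. For the difference between responses (3) it was 0 without the filter, 0 without the trend and 5 with the replicate block. Leaving out 1 library each gave 2907 to 4638 for ibrutinib with sgCTRL (4411), 3566 to 4955 with sgKLHL14 (4939), 63 to 534 for the guides in DMSO, 123 to 364 in ibrutinib and 2 to 4 for the difference. The cause of these shifts was not tested. Scalings moved the median gene by less than 0.02.

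Some small differences turned sign, none of them called. The difference between responses for ATF4 was 0.0017 with quantile scaling. With 1 library left out that difference ran from -0.066 to 0.033 for ATF4, -0.12 to 0.17 for DDIT3, -0.22 to 0.079 for DDIT4, -0.051 to 0.065 for TRIB3, -0.006 to 0.27 for SESN2, -0.39 to 0.47 for CEBPB and -0.028 to 0.11 for CEBPG. The difference by guide in DMSO ran from -0.037 to 0.25 for DDIT3 and -0.14 to 0.0085 for DDIT4. In ibrutinib it ran from -0.29 to 0.012 for DDIT4 and -0.49 to 0.37 for CEBPB. The EIF2AK2 change with ibrutinib in sgKLHL14 cells ran from -0.085 to 0.12. A group with 1 library left was assumed to vary like the others. The difference between responses could not be fitted with only the groups compared, since it uses all 4.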
